A study of Mus musculus with 6 samples.

Results

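The molecular chaperones examined here are the genes of the HSP70, HSP90, HSP110, small HSP, HSP60/HSP10, DNAJ and CCT families, with Tcp1 and Hsf1. They were chosen by gene symbol among the protein-coding genes of the GENCODE mouse annotation on GRCm38, and 82 of the 48709 genes in the count table were members. Of these, 64 had enough reads to enter the test, among 12722 tested genes in all. RNA-Seq was carried out on G1E-ER4 cells, an immature erythroblast line derived from mouse embryonic stem cells that lack GATA-1 and carry a fusion of GATA-1 to the ligand-binding domain of the estradiol receptor, so that tamoxifen switches GATA-1 on. All 6 libraries carried this fusion and received tamoxifen for 28 h. The 3 CHD4-APR libraries came from cells given, 2 h earlier, 10 μM of a peptide copying the aggregation-prone region (APR) of the chromatin remodeler CHD4, linked to the HIV-1 Tat nuclear localization signal. The 3 CTRL libraries came from cells given 10 μM of an alanine stretch linked to the same signal. The tamoxifen dose is stated as 100 nM in one place of the labels and as 100 μM in another. Libraries without peptide were not analysed here, so every value below compares one peptide with the other in a single cell line, and nothing in the labels says whether the replicates were separate cultures, so the p-values measure the spread between these libraries, which may be technical.

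Total counts lay between 41687482 and 49784177 per CTRL library and between 41945739 and 46888804 per CHD4-APR library. All 10 erythroid markers examined (among them Gata1, Klf1, Hba-a1 and Slc4a1) passed the filter on low counts, and their summed level was 37498 to 39502 CPM (counts scaled to a common library size) in the CTRL libraries and 33261 to 34996 in the CHD4-APR libraries. Most of that sum was the globin genes Hba-a1 and Hbb-bt, which fell with Klf1, while Gata1 and Tfrc rose and the other 5 did not pass (with the length and GC correction described below, Gata1 and Slc4a1 rose and Hbb-bt fell). Reads of Gata1 can come from the introduced GATA-1 fusion, which these counts do not tell apart from the cells' own gene. The summed level of 6 myeloid markers was 178 to 206 CPM with CTRL and 162 to 163 CPM with CHD4-APR, and that of 5 megakaryocyte markers 46.7 to 48.8 and 39.9 to 45.7 CPM. Nearly all of the myeloid sum was Spi1, at 201, 174 and 187 CPM with CTRL and 158, 160.0 and 158 CPM with CHD4-APR, with a log2 fold change of -0.24 (SE 0.050, edgeR adjusted p = 0.00131) and -0.091 with that correction (edgeR adjusted p = 0.0763). Ctsg and Mpo of the myeloid list and Gp1bb and Ppbp of the megakaryocyte list were at 0 in every library. The mast cell and lymphoid lists each summed to at most 0.604 CPM, with Mcpt8, Cd3e, Ms4a1 and Ptprc at 0 throughout. In bulk RNA, fewer cells of a type and less RNA per cell cannot be told apart, and the part of these marker levels in the chaperone values was not tested.

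Chaperones bind unfolded or partly folded proteins and keep them from aggregating. HSP70 proteins work in cycles of ATP hydrolysis that DNAJ (HSP40) proteins start and that HSP110 exchange factors end by releasing ADP, while HSP90 acts later on kinases and nuclear receptors, the ring complex TRiC folds actin and tubulin inside its cavity, and dedicated sets serve the endoplasmic reticulum (ER) and mitochondria. HSF1 is the transcription factor that drives the cytosolic heat shock response by binding heat shock elements, and ATF6, IRE1 and PERK report unfolded protein in the ER. In maturing erythroblasts HSP70 is known to shield GATA-1 from caspase cleavage, and chaperones handle the large output of globin.

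Changes in chaperone mRNA with CHD4-APR were small and ran in both directions (Hspa13 and Dnajb9 of the ER at the top, the nuclear DNAJ gene Dnajc17 and the small HSP gene Hspb6 at the bottom). With edgeR's quasi-likelihood test and Benjamini-Hochberg adjustment over all tested genes, 25 of the 64 tested members passed the threshold of 0.05, or 39.1%, against 38.3% of all tested genes. Of the 25, 11 rose and 14 fell, where 20.4% of all tested genes rose and 17.8% fell. No member passed with a change of at least 1.5-fold in edgeR, DESeq2 or limma-voom, nor at an unadjusted p in edgeR since no log2 fold change reached it, while 4.23% of all tested genes did. The groups' 3 and 3 libraries did not overlap for 32 members, or 50%, against 49.9% of all tested genes. The share of members called was thus close to the background, and below the 43.0% of the 10100 protein-coding genes tested. Log2 fold changes ran from -0.51 to 0.51 with a median of -0.013, beside a median of -0.012 over all tested genes. Together the members took 0.918% of the counts with CTRL and 0.926% with CHD4-APR, while their summed TMM-normalized level was 9321 ± 167 CPM with CTRL and 9115 ± 79.6 CPM with CHD4-APR (SD, n = 3).

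The direction of the calls depended on the scaling. Longer genes with lower GC content were higher with CHD4-APR across the whole table (Spearman's rho with the log2 fold change of 0.41 for exonic length and -0.46 for GC content over 12677 genes of the same 6 libraries), and the 11 members that rose had a median exonic length of 6834 bases and a GC content of 43.2%, against 4138 bases and 49.1% for the 14 that fell and 3688 bases and 49.6% for all tested genes. With offsets that removed this trend from each library, 6 members rose and 21 fell, at a background of 27.6% of all tested genes called (11.7% higher and 15.9% lower), and the median of the members was -0.058 against -0.024 for all tested genes. With library size as the sole scaling 14 rose and 8 fell, where 23.3% and 11.6% of all tested genes did (34.8% called in all). It added calls higher for Dnaja2, Dnajc16 and Hspa5. With library size alone Hsf1, Hspbap1, Dnajc7, Dnajc8, Dnajc9 and Dnajc19 were no longer called (edgeR adjusted p between 0.0521 and 0.162). The median of each role group with at least 2 tested members is given with the correction too, as are the values of the members whose call it ended. The count of members that fell also depended on single libraries, as did that of all tested genes. It was 9 without CTRL replicate 1, where 14.4% of all tested genes fell, and 9, 7 and 9 without CHD4-APR replicates 1, 2 and 3, where 12.8%, 11.8% and 13.7% fell.

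**Figure D1:**
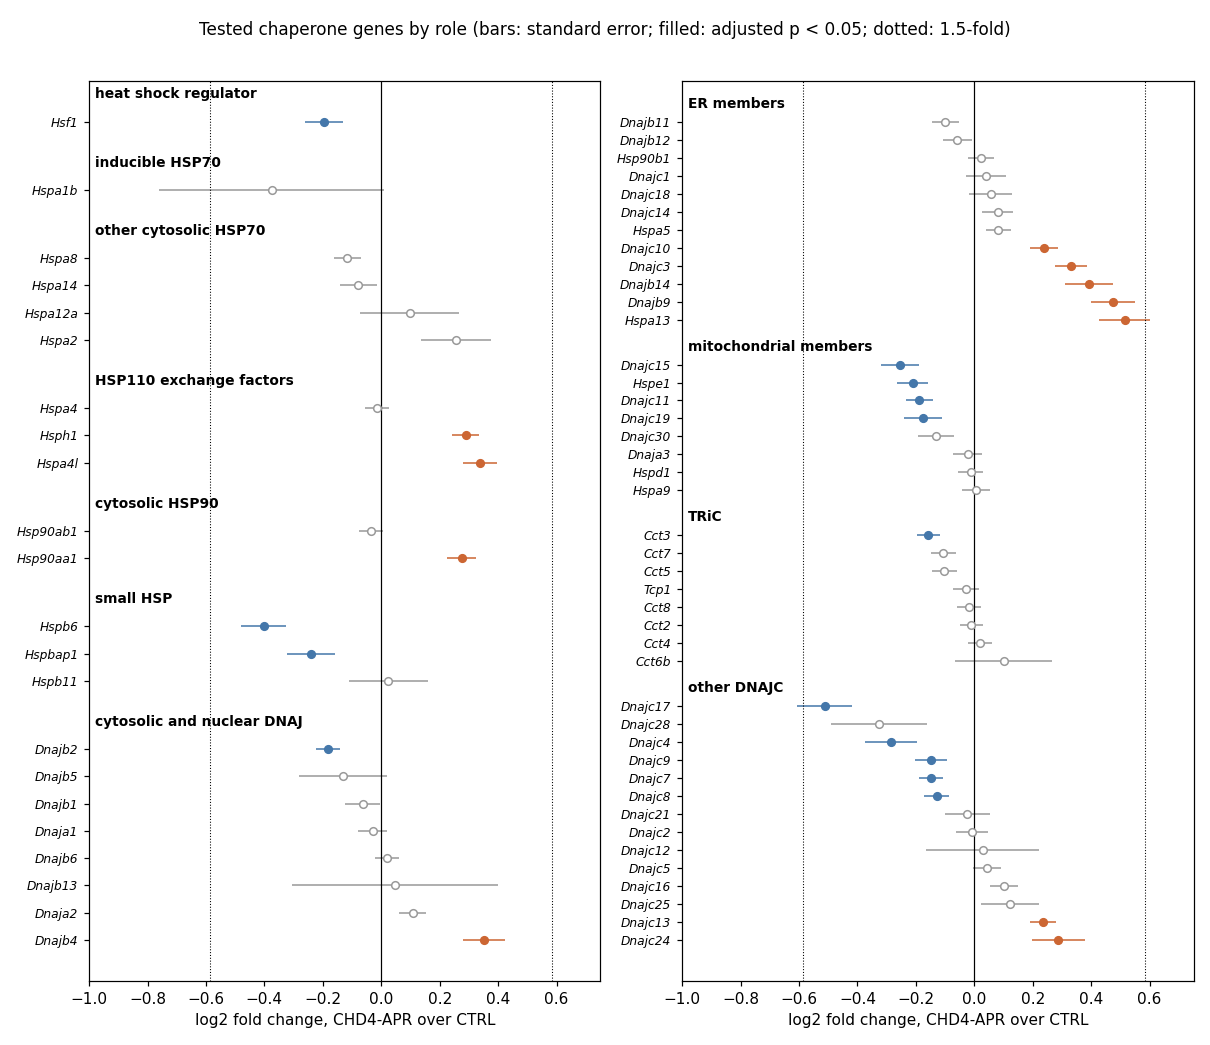
Log2 fold change of CHD4-APR over CTRL for the 64 tested chaperone genes, sorted within role groups, with standard errors as bars, filled points for an edgeR adjusted p below 0.05 and dotted lines at 1.5-fold. All 5 filled ER points lie to the right of 0 and all 4 filled mitochondrial points to the left, and no filled point reaches a dotted line. With the length and GC correction, not shown here, 2 ER members rose and 1 fell, and 4 mitochondrial members fell.

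The promoters of 6 members are printed to show the DNA elements by which heat shock and ER stress are known to act on these families. They are RefSeq windows on GRCm38.p6, from 250 bases before to 50 bases after the annotated start, for Hspa1a (chr17:34972107-34972406, minus strand), Hsph1 (chr5:149636287-149636586, minus strand), Hspe1 (chr1:55087898-55088197, plus strand), Hspa5 (chr2:34771840-34772139, plus strand), Hsp90b1 (chr10:86705395-86705694, minus strand) and Dnajc3 (chr14:118937682-118937981, plus strand), each read 5′ to 3′ on its own strand. Capitals mark the heat shock element, searched as GAANNTTC or TTCNNGAA on both strands with overlaps allowed, in the first 3, and the ER stress element, searched as CCAAT followed after 9 bases by CCACG on both strands, in the last 3.
Hspa1a: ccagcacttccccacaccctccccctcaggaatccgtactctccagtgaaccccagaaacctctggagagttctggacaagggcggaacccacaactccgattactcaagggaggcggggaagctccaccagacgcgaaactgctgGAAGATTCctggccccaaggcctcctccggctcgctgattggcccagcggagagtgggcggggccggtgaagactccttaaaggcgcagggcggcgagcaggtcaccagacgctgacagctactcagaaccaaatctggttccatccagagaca
Hsph1: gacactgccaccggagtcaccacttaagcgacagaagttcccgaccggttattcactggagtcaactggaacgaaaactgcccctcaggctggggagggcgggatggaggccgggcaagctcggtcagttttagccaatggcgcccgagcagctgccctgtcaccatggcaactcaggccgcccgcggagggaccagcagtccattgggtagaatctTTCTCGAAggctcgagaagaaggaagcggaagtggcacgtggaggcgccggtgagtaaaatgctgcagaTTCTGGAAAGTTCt
Hspe1: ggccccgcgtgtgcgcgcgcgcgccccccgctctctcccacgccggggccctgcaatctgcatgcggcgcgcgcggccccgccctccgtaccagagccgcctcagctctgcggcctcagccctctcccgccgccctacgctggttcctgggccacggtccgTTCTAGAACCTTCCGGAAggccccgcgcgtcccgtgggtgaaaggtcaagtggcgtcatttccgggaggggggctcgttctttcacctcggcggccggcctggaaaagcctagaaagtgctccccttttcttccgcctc
Hspa5: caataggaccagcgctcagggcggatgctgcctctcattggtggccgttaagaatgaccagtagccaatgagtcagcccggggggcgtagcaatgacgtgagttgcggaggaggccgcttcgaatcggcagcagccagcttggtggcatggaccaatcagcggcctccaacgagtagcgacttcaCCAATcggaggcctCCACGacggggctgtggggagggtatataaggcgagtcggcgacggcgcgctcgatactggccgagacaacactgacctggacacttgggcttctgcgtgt
Hsp90b1: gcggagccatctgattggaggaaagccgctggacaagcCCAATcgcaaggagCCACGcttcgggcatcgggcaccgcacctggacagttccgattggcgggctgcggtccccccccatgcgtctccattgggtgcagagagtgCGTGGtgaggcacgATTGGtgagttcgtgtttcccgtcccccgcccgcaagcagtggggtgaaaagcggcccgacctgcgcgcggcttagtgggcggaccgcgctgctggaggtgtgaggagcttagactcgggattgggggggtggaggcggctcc
Dnajc3: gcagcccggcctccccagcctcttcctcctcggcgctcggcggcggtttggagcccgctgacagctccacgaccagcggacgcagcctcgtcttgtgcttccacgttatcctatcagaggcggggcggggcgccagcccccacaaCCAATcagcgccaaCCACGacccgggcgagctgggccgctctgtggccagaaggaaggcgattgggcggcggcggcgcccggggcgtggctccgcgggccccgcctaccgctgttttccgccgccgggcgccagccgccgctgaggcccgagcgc

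A window was listed for 66 of the 82 members and for 8505 of the tested genes. A heat shock element stood in 13 of these 66 windows (19.7%) and in 7 of the 51 of tested members (13.7%), against 11.6% of the 8505. Hspa1a carried 1, with its first base 104 bases before the start, as did Hspa1b, whose window differed from that of Hspa1a at 4 of 300 bases. Hsph1 carried 3, at 33 bases before and 37 and 42 bases after the start, and Hspe1 carried 3 that overlapped, at 89, 84 and 79 bases before the start. The ER stress element stood in 3 of the 66 windows, those of Hspa5, Hsp90b1 (2 copies, one of them on the other strand) and Dnajc3, and in 16 of the 8505 (0.188%). Of the 9 rising members with a window, 2 held a heat shock element and 1 an ER stress element. Of the 12 falling ones 1 held a heat shock element, Hspe1, and 0 an ER stress element. Such matches describe letters in a window and say nothing of binding.

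Among the regulator and the cytosolic HSP70 machinery, Hsf1 was lower and 2 of the 3 HSP110 genes were higher with CHD4-APR, while the inducible HSP70 genes stayed close to the detection limit in both groups. Hsf1 (ENSMUSG00000022556, chr15:76477422-76501913, plus strand) was at 29.7, 30.1 and 26.8 CPM in the CTRL libraries and at 25.3, 24.0 and 26.3 CPM in the CHD4-APR libraries. Every CHD4-APR library lay below every CTRL library, with a log2 fold change of -0.20 (SE 0.065, edgeR adjusted p = 0.0257). The value with the length and GC correction was -0.21 (edgeR adjusted p = 0.0219). The call rested on single libraries. Leaving out CTRL replicate 1 or 2 gave an edgeR adjusted p of 0.0566 or 0.079, and leaving out the first or second CHD4-APR library gave 0.0605 or 0.131.

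The stress-inducible HSP70 genes Hspa1a and Hspa1b, the classical targets of HSF1, lie side by side on chromosome 17 (chr17:34969190-34972156, minus strand, and chr17:34956436-34959238, minus strand). Hspa1a was counted 11, 10 and 7 times in the CTRL libraries and 10, 10 and 7 times in the CHD4-APR libraries, too few to be tested. Hspa1b was counted 28, 34 and 12 times with CTRL and 16, 27 and 14 times with CHD4-APR. These counts overlapped between the groups, and the log2 fold change of -0.37 (SE 0.38, edgeR adjusted p = 0.48) was smaller than its standard error. It ran from -0.75 without CHD4-APR replicate 2 to -0.16 without CHD4-APR replicate 3. They are near-identical copies, so reads may be shared or dropped between them, and how multimapping reads were counted is not given in the sources used here, so both levels are uncertain.

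Hspa8, the constitutive HSP70 that also uncoats clathrin vesicles, had the highest level of all members per kilobase of exon, with a mean of 341 ± 15.5 RPKM (read counts scaled to library size and exonic length; SD, n = 3) in the CTRL libraries. It was at 1531, 1465 and 1398 CPM with CTRL and at 1372, 1296 and 1386 CPM with CHD4-APR. The groups did not overlap, but the log2 fold change of -0.12 missed the threshold (SE 0.046, edgeR adjusted p = 0.0559). It passed with DESeq2 (adjusted p = 0.0389), with limma-voom (adjusted p = 0.0428), with the length and GC correction in edgeR (-0.20, adjusted p = 0.00234) and, in edgeR without CTRL replicate 3, at an adjusted p of 0.0397. Over all settings tried the log2 fold change of Hspa8 ran from -0.20 to -0.071, with an edgeR adjusted p of up to 0.292. The other 3 tested genes of this group, Hspa2, Hspa12a and Hspa14, had log2 fold changes of 0.26, 0.098 and -0.079 and did not pass. With the correction Hspa2 passed at 0.37 (edgeR adjusted p = 0.0283). The median of the group was 0.0093 and turned to -0.078 with the correction, with 1 member higher and 1 lower. Hspa1l and Hspa12b, with at most 11 counts in a library, were not tested.

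The HSP110 proteins exchange the nucleotide of HSP70. Hsph1 (ENSMUSG00000029657, chr5:149614287-149636376, minus strand), the heat-inducible member whose promoter is printed above, was at 71.6, 77.5 and 75.4 CPM with CTRL and at 92.5, 89.7 and 92.1 CPM with CHD4-APR. All CHD4-APR libraries were above all CTRL libraries, with a log2 fold change of 0.29 (SE 0.047, edgeR adjusted p = 0.000174), or 1.22-fold. Hspa4l rose from 35.0, 34.3 and 33.6 CPM to 46.2, 42.8 and 41.0 CPM, with a log2 fold change of 0.34 (SE 0.058, edgeR adjusted p = 0.000273). Hspa4, the most abundant of the 3, was at 279.6, 280.4 and 275 CPM and 276, 280.4 and 269.5 CPM, values that overlapped, with a log2 fold change of -0.015 (SE 0.040, edgeR adjusted p = 0.801). The length and GC correction separated the 2 that rose. Hsph1 kept a value of 0.14 (edgeR adjusted p = 0.0109), Hspa4l turned to -0.051 (edgeR adjusted p = 0.583), and Hspa4 fell to -0.13 (edgeR adjusted p = 0.0111). The group median of 0.29 thereby turned to -0.051.

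Of the cytosolic HSP90 genes, Hsp90aa1 rose and Hsp90ab1 did not pass. Hsp90aa1 (ENSMUSG00000021270, chr12:110690605-110702728, minus strand), the form that heat shock induces, was at 393, 447 and 415 CPM with CTRL and at 495, 516 and 508 CPM with CHD4-APR. The groups did not overlap, with a log2 fold change of 0.27 (SE 0.048, edgeR adjusted p = 0.000328), and with the correction the value was 0.16 (edgeR adjusted p = 0.00473). Hsp90ab1, the constitutive form and the more abundant one in every library, was at 892, 849.9 and 836 CPM and 840.2, 831 and 845 CPM. Those values overlapped, with a log2 fold change of -0.035 (SE 0.042, edgeR adjusted p = 0.55), a sign that turned with library size alone (0.011) and with the correction (0.023). The group median was 0.12, and 0.090 with the correction. The ratio of Hsp90aa1 to Hsp90ab1 within a library, in CPM, does not depend on library size or TMM factors. It was 0.441, 0.527 and 0.497 with CTRL and 0.590, 0.621 and 0.601 with CHD4-APR, without overlap (two-sided exact permutation p = 0.1, the smallest that 3 against 3 libraries allow). The log2 fold changes of the 2 genes lay 0.31 apart, and 0.13 apart with the length and GC correction, which acts gene by gene. This ratio is one of 2 chosen after the values had been seen.

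**Figure D2:**
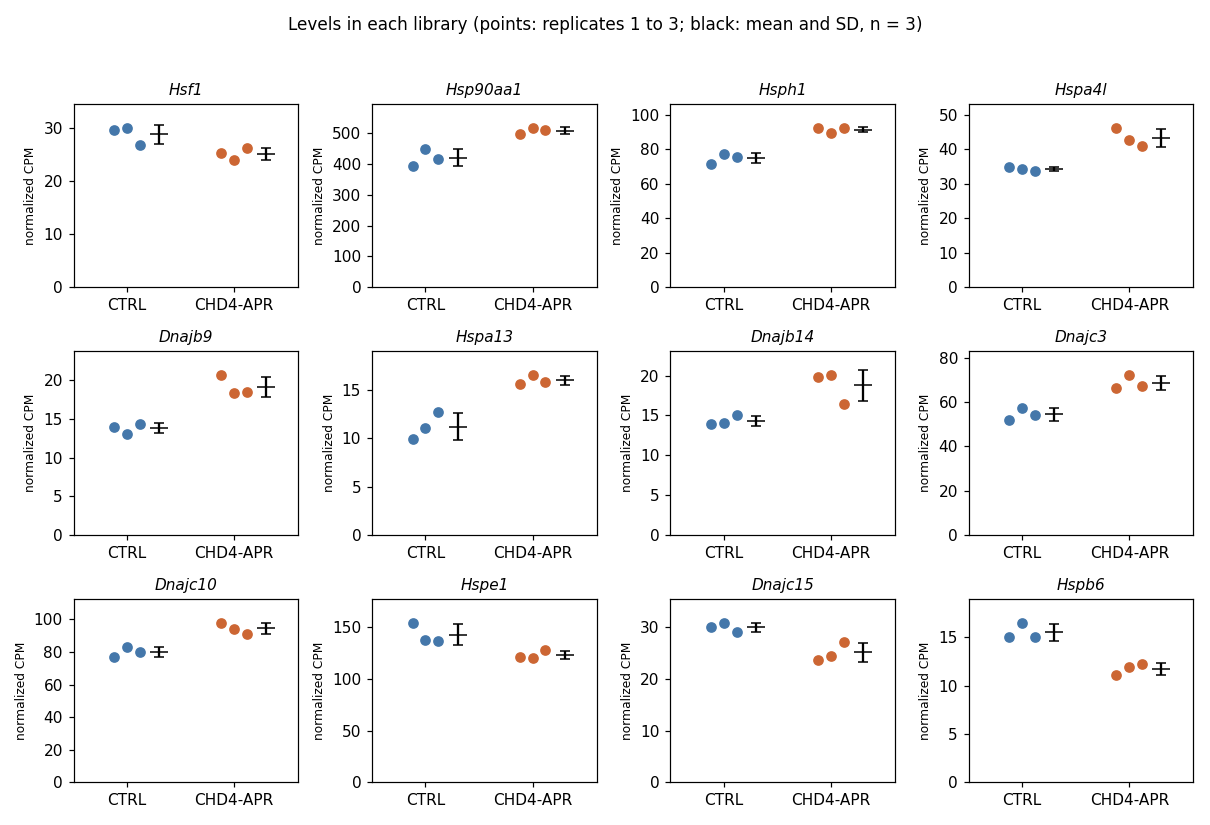
Levels of 12 chaperone genes in TMM-normalized CPM (vertical axes, each from 0), with 1 point per library in the order of replicates 1 to 3 and the mean with SD of each group in black (n = 3). Hsp90aa1, Hsph1, Dnajb9 and Hspa13 sit higher in all 3 CHD4-APR libraries than in any CTRL library, and Hsf1, Hspe1, Dnajc15 and Hspb6 lower.

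Small HSPs hold unfolding proteins without ATP. Of the 9 symbols grouped here, 3 passed the filter on low counts, and among these Hspb6 alone encodes a small HSP. Hspb1, the main stress-inducible small HSP, was listed at 0 counts in all 6 libraries, and so were Hspb2, Hspb7 and Hspb8. A count of 0 allows up to 3 counts, or 0.0603 to 0.072 CPM depending on the library, for counting error only. Hspb3 and Hspb9 reached at most 1 and 9 counts. Hspb6 (HSP20) was at 15.0, 16.5 and 15.0 CPM with CTRL and at 11.1, 12.0 and 12.2 CPM with CHD4-APR. It fell without overlap, with a log2 fold change of -0.40 (SE 0.077, edgeR adjusted p = 0.000664) and -0.27 with the correction (edgeR adjusted p = 0.0144). Its exons overlap those of Proser3 by up to 122 bases, and how reads there were assigned is not given in the sources used here. The other 2 tested symbols are not chaperones of this fold by function: Hspbap1 encodes a partner of HSPB1 and Hspb11 an intraflagellar transport protein. Hspbap1 was at 10.6, 10.1 and 11.3 CPM with CTRL and 9.19, 8.96 and 8.89 CPM with CHD4-APR, with a log2 fold change of -0.24 (SE 0.082, edgeR adjusted p = 0.029). That call was lost with DESeq2 (adjusted p = 0.0618) and, in edgeR, without CTRL replicate 3 (adjusted p = 0.118) or without any one of the CHD4-APR libraries (adjusted p between 0.0542 and 0.0879). With the correction Hspbap1 was called at -0.50 (edgeR adjusted p = 0.000273). Hspb11 had a log2 fold change of 0.024 and did not pass. The median of the 3 is thus the value of Hspbap1, and with the correction that of Hspb6, and says little of small HSPs.

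DNAJ proteins carry the J domain that sets off ATP hydrolysis by HSP70, and they made up 45 of the 82 members. Of the 36 tested, 7 rose, 9 fell and 20 did not pass (44.4% called), with a median log2 fold change of -0.016 that turned to 0.029 with library size alone. Among all tested genes 38.3% were called (20.4% higher and 17.8% lower), and 43.0% among the protein-coding ones. None of the 3 tested genes of class A passed (1 was higher at an unadjusted p under 0.05 in edgeR, and 0 passed with DESeq2 and limma-voom), 3 of the 10 of class B rose and 1 fell, and 4 of the 23 of class C rose and 8 fell. With the correction 3 rose and 10 fell, where 11.7% of all tested genes rose and 15.9% fell, and the median was -0.052. The DNAJ genes are taken by compartment here.

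Of the 12 DNAJ genes of the cytosol and nucleus 8 were tested, 1 rose and 1 fell (25% called, against 38.3% of all tested genes). The median was -0.0046, which turned to 0.041 with library size alone. With the correction none rose and 1 fell, with a median of -0.014. The principal HSP40 partners of cytosolic HSP70 did not pass. Dnajb1, the heat-inducible one, was at 55.6, 57.4 and 52.7 CPM with CTRL and at 48.2, 55.8 and 54.5 CPM with CHD4-APR, with a log2 fold change of -0.064 (SE 0.059, edgeR adjusted p = 0.434). Dnaja1 was at 356, 346 and 326 CPM with CTRL and at 357, 319.6 and 331 CPM with CHD4-APR, with a log2 fold change of -0.029 (SE 0.049, edgeR adjusted p = 0.685). Both overlapped between the groups. With the correction Dnajb1 turned to 0.013 and Dnaja1, whose exons overlap those of Smu1 by up to 608 bases, fell to -0.36 (edgeR adjusted p = 0.000283).

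Dnajb4, a cytosolic relative of Dnajb1, was at 19.1, 22.9 and 23.0 CPM with CTRL and at 27.6, 27.6 and 27.8 CPM with CHD4-APR, close to the same in its 3 treated libraries. It rose with a log2 fold change of 0.35 (SE 0.072, edgeR adjusted p = 0.00121), but had 0.042 with the correction (edgeR adjusted p = 0.645). Dnajb2, which binds ubiquitin chains and hands clients to the proteasome, was the most abundant DNAJ gene per kilobase of exon, with a CTRL mean of 148 ± 1.38 RPKM (SD, n = 3). It was at 636, 624 and 629 CPM and 536, 568 and 563 CPM, without overlap, with a log2 fold change of -0.18 (SE 0.041, edgeR adjusted p = 0.00248). With the correction that was -0.076 (edgeR adjusted p = 0.141). Dnaja2, Dnajb5, Dnajb6 and Dnajb13 did not pass, and Dnaja4, Dnajb3, Dnajb7 and Dnajb8 had at most 8 counts in a library and were not tested.

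The ER members included the largest rises without the length and GC correction, while with it the highest value was that of Hspa2, at 0.37. All 12 were tested, 5 rose, none fell and 7 did not pass (41.7% called). Among all tested genes 38.3% were called, and 43.0% among the protein-coding ones. Of the 12 ER log2 fold changes 10 were above 0, with a median of 0.081. At an unadjusted p under 0.05 in edgeR 1 ER member was lower, and DESeq2 and limma-voom also called 0 lower. Dnajb9 (ERdj4; ENSMUSG00000014905, chr12:44205559-44210326, minus strand), which binds the sensor IRE1 and takes misfolded proteins to degradation, was at 14.0, 13.1 and 14.4 CPM with CTRL and at 20.7, 18.4 and 18.5 CPM with CHD4-APR. Its lowest CHD4-APR library was above its highest CTRL library, with a log2 fold change of 0.47 (SE 0.075, edgeR adjusted p = 0.000134), or 1.39-fold. It remained called under every one of the 16 alternatives tried, between 0.32 and 0.52, the correction included (0.32, edgeR adjusted p = 0.00526).

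Hspa13 (ENSMUSG00000032932, chr16:75745431-75767104, minus strand), an HSP70-like protein of microsomes, was at 9.92, 11.1 and 12.7 CPM with CTRL and at 15.7, 16.5 and 15.9 CPM with CHD4-APR. The groups did not overlap, with a log2 fold change of 0.51 (SE 0.087, edgeR adjusted p = 0.00024), or 1.43-fold. Without CTRL replicate 3, its highest CTRL library, the log2 fold change was 0.61, past 1.5-fold, and with the correction it was 0.20 and missed the threshold (edgeR adjusted p = 0.0562). Dnajc3 (p58IPK), a co-chaperone of BiP and an inhibitor of PERK whose promoter is printed above, was at 51.8, 57.5 and 54.4 CPM and 66.6, 72.2 and 67.1 CPM. It rose without overlap, with a log2 fold change of 0.33 (SE 0.054, edgeR adjusted p = 0.000174) and 0.15 with the correction (edgeR adjusted p = 0.0141). Dnajb14, a J protein of the ER membrane, was at 14.0, 14.0 and 15.0 CPM and 19.8, 20.1 and 16.5 CPM. It rose with a log2 fold change of 0.39 (SE 0.082, edgeR adjusted p = 0.00135), and with the correction had 0.017 (edgeR adjusted p = 0.903).

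Dnajc10 (ERdj5), a disulfide reductase, was the other ER gene that rose, with a log2 fold change of 0.24 (SE 0.048, edgeR adjusted p = 0.000995) and 0.11 with the correction (edgeR adjusted p = 0.0577). The central ER chaperones did not pass. Hspa5, which encodes BiP, the HSP70 of the ER, was at 191, 196 and 189 CPM with CTRL and at 199.7, 207 and 203 CPM with CHD4-APR. Its groups did not overlap, yet the difference was small, with a log2 fold change of 0.083 (SE 0.041, edgeR adjusted p = 0.128), and it turned to -0.0070 with the correction, while with library size alone it was 0.13 and passed (edgeR adjusted p = 0.0256). Hsp90b1 (GRP94), the HSP90 of the ER, was at 190.4, 206 and 189 CPM and 199.6, 195 and 199.7 CPM, values that overlapped, with a log2 fold change of 0.022 (SE 0.045, edgeR adjusted p = 0.734). The correction took it to -0.14 (edgeR adjusted p = 0.00832). Dnajb11 (ERdj3), a secreted partner of BiP, had a log2 fold change of -0.099 (SE 0.045, edgeR adjusted p = 0.0973). Thus of the 3 members with an ER stress element, Dnajc3 was called higher and Hspa5 and Hsp90b1 were not called. With the correction 2 ER members rose, Dnajb9 and Dnajc3, 1 fell, Hsp90b1, and the median was 0.0048. Among all tested genes 11.7% rose and 15.9% fell with it.

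In a list of 24 other genes of ER stress and ER folding, all tested, 6 rose, 5 fell and 13 did not pass (45.8% called, against 38.3% of all tested genes), with a median log2 fold change of -0.034 that turned to 0.012 with library size alone. Among those that rose, Eif2ak3, which encodes the sensor kinase PERK, was at 15.3, 14.6 and 15.7 CPM with CTRL and at 20.6, 25.5 and 23.5 CPM with CHD4-APR, with a log2 fold change of 0.61 (SE 0.079, edgeR adjusted p = 2.47e-05). Ern1, which encodes IRE1, had a log2 fold change of 0.39 (SE 0.058, edgeR adjusted p = 9.04e-05). Both kept their call with the correction, at 0.58 and 0.30. The third sensor gene, Atf6, rose with a log2 fold change of 0.23 (SE 0.042, edgeR adjusted p = 0.000396), but had 0.012 with the correction (edgeR adjusted p = 0.84). Of the transcription factors downstream of PERK, Ddit3 and Atf4 fell. Ddit3 (CHOP) fell from 304, 286 and 285 CPM to 226, 219 and 230.3 CPM, with a log2 fold change of -0.37 (SE 0.043, edgeR adjusted p = 9.24e-06) and -0.38 with the correction. Atf4 fell with a log2 fold change of -0.24 (SE 0.051, edgeR adjusted p = 0.00143), and had -0.10 with the correction (edgeR adjusted p = 0.0766). With the correction 4 genes of the list rose and 3 fell, at the background of 27.6% called.

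**Figure D3:**
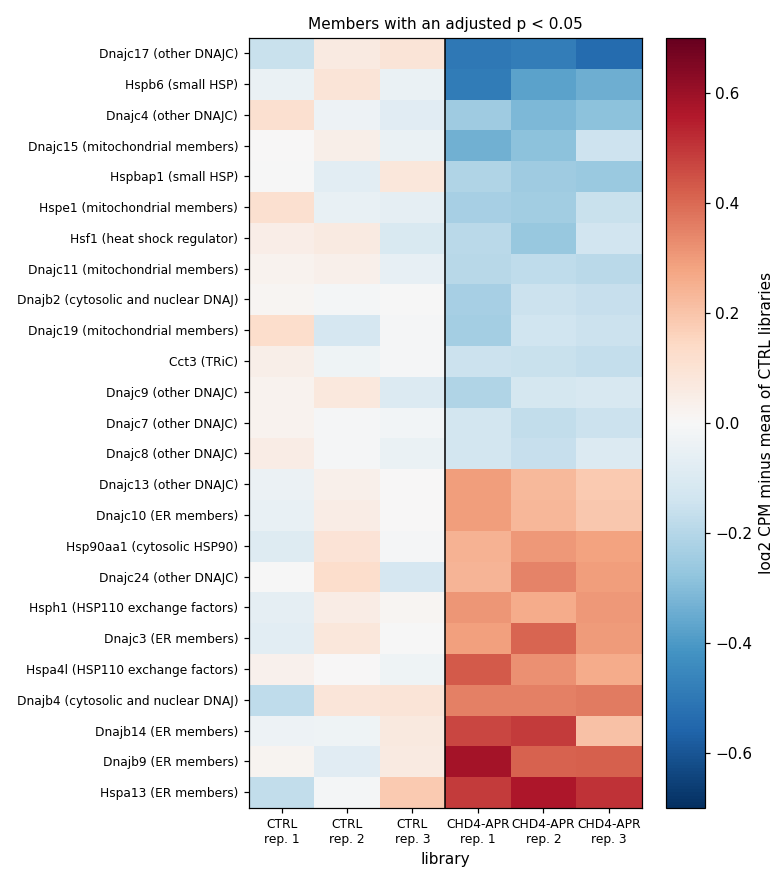
Log2 CPM of the 25 chaperone genes with an edgeR adjusted p below 0.05 (rows, with the role group in brackets) in each of the 6 libraries (columns), as the difference from the mean of the CTRL libraries, from blue (lower) to red (higher). The members were chosen by this contrast, so the split between the groups is a description. Dnajb14 stood lower in CHD4-APR replicate 3, at 16.5 CPM, than in the other CHD4-APR libraries.

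Among the mitochondrial members, 4 of 8 fell, none rose and 4 did not pass (50% called, against 38.3% of all tested genes), with a median of -0.15 and of -0.15 with the correction, which again gave 4 falling (all tested genes with the correction: 15.9% lower). Higher mitochondrial members numbered 0 at an unadjusted p under 0.05 in edgeR as well, and 0 with DESeq2 and limma-voom. The matrix chaperones HSP70 and HSP60 did not pass. Hspa9 (mortalin) was at 117, 129.7 and 125 CPM with CTRL and at 119.9, 129 and 124 CPM with CHD4-APR, with a log2 fold change of 0.0058 (SE 0.049, edgeR adjusted p = 0.941). Hspd1 (HSP60) was at 198, 206 and 191 CPM and 198, 196 and 197 CPM, with a log2 fold change of -0.012 (SE 0.043, edgeR adjusted p = 0.858). Values of both genes overlapped, and their signs turned under some alternatives. Hspe1 (HSP10; ENSMUSG00000073676, chr1:55088132-55091307, plus strand), the lid of the HSP60 barrel, was at 154, 137 and 136 CPM and 121, 120.3 and 128 CPM, without overlap. It fell with a log2 fold change of -0.21 (SE 0.052, edgeR adjusted p = 0.00413), and had -0.21 with the correction (edgeR adjusted p = 0.00436).

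Hspe1 and Hspd1 are transcribed away from each other from one bidirectional promoter region, and RefSeq lists 2 starts for Hspd1, one 216 bases upstream of the Hspe1 start and one 95 bases downstream of it, inside Hspe1. The ratio of Hspe1 to Hspd1 in CPM, the second ratio chosen after the values had been seen, was 0.778, 0.666 and 0.712 with CTRL and 0.613, 0.613 and 0.651 with CHD4-APR, without overlap (two-sided exact permutation p = 0.1, the smallest possible). The difference of their log2 fold changes was -0.20, and -0.19 with the correction. Their exons overlap by up to 112 bases, and pseudogenes of both are annotated. Dnajc15, a J protein of the import motor, was at 30.1, 30.9 and 29.1 CPM with CTRL and at 23.8, 24.6 and 27.1 CPM with CHD4-APR, with a log2 fold change of -0.26 (SE 0.065, edgeR adjusted p = 0.00512). With the correction its difference was the larger -0.46 (edgeR adjusted p = 7.4e-05). Dnajc11, a component associated with the cristae junction, was at 101, 102 and 95.0 CPM and 86.5, 87.5 and 87.0 CPM, with a log2 fold change of -0.19 (SE 0.045, edgeR adjusted p = 0.00364) and -0.27 with the correction. Dnajc19, also of the import motor, fell with a log2 fold change of -0.18 (SE 0.065, edgeR adjusted p = 0.0423). That call was lost without CTRL replicate 1 or 3 and without each CHD4-APR replicate in turn (edgeR adjusted p between 0.0758 and 0.169) and with DESeq2 (adjusted p = 0.05). With the correction Dnajc19 was called at -0.39 (edgeR adjusted p = 0.000894). Dnaja3 and Dnajc30 did not pass.

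A list of 11 other genes of mitochondrial folding and proteolysis had 2 that rose, 6 that fell and 3 that did not pass (72.7% called, against 38.3% of all tested genes), with a median of -0.17, and -0.11 with the correction. Clpp, the peptidase of the matrix, fell with a log2 fold change of -0.35 (SE 0.069, edgeR adjusted p = 0.00097), and Htra2, a protease of the intermembrane space, with a log2 fold change of -0.25 (SE 0.044, edgeR adjusted p = 0.000359). Neither was called with the correction (-0.16 and -0.10, edgeR adjusted p = 0.0517 and 0.058). Yme1l1, a protease of the inner membrane, rose with a log2 fold change of 0.21 (SE 0.049, edgeR adjusted p = 0.00274) but reversed to -0.16 with the correction (edgeR adjusted p = 0.00484). Clpx, the unfoldase that feeds Clpp, rose with a log2 fold change of 0.15 (SE 0.045, edgeR adjusted p = 0.0132), a call lost without CHD4-APR replicate 2 (edgeR adjusted p = 0.0738) and with the correction (0.068, edgeR adjusted p = 0.211). With the correction 2 of the 11 fell, Grpel1 and Yme1l1, where 15.9% of all tested genes fell.

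TRiC, the ring of 8 different subunits that folds actin and tubulin, had 1 member past the test. Of the 8 tested members, 1 fell, none rose and 7 did not pass (12.5% called, against 38.3% of all tested genes). The median was -0.023 and turned to 0.022 with library size alone. No subunit was higher at an unadjusted p under 0.05 in edgeR or called higher by DESeq2 or limma-voom, while 3 were lower at an unadjusted p under 0.05 in edgeR and 2 were called lower by DESeq2, Cct3 and Cct7 (adjusted p = 0.044 for the latter). Cct3 was at 323, 307 and 312 CPM with CTRL and at 283, 282 and 279.7 CPM with CHD4-APR, without overlap, with a log2 fold change of -0.16 (SE 0.041, edgeR adjusted p = 0.0059) and -0.30 with the correction. Tcp1 (the alpha subunit) had -0.029, Cct2 -0.010, Cct4 0.019, Cct5 -0.10, Cct7 -0.11 and Cct8 -0.017 as log2 fold changes, with edgeR adjusted p-values between 0.0609 and 0.872. Of these, Cct5 and Cct7 were lower in all CHD4-APR libraries than in any CTRL library, and both passed with upper quartile scaling (edgeR adjusted p = 0.0331 and 0.0321). With the correction Cct5 had -0.050 (edgeR adjusted p = 0.334), and the weakest value of Cct7 over all settings tried was -0.061. The testis form Cct6b, at 1.94 to 3.02 CPM, did not pass either. Cct6a, the zeta subunit of other tissues, is a processed transcript in the annotation used for the choice and so was no member. It was at 85.3, 92.8 and 89.1 CPM and 92.8, 93.8 and 96.0 CPM, with a log2 fold change of 0.081 (SE 0.047, edgeR adjusted p = 0.188).

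Across the 8 subunits of the ring, Cct6a included and Cct6b left out, the change of the level from CTRL to CHD4-APR ran from -10.3% to 5.78%. Their CTRL means per kilobase of exon spanned 24.6 to 164 RPKM, a 6.67-fold range, and the exonic length used includes retained introns, which limits this comparison between genes. With the correction 4 members fell, Tcp1 at -0.26, Cct3 at -0.30, Cct7 at -0.30 and Cct8 at -0.12, and the median was -0.10. Of all tested genes 15.9% fell with it. Among 9 tested partners of TRiC, the prefoldin and phosducin-like genes, 1 rose and 3 fell (44.4% called, against 38.3% of all tested genes), with a median of 0.0023 that turned to -0.10 with the correction. Pdcl, a phosducin-like cofactor, rose from 24.7, 29.9 and 29.8 CPM to 39.7, 42.7 and 41.0 CPM, with a log2 fold change of 0.55 (SE 0.070, edgeR adjusted p = 2.04e-05) and 0.49 with the correction. Pfdn6 and Pfdn5, subunits of the prefoldin that delivers actin and tubulin to TRiC, fell by 0.34 and 0.26 on the log2 scale (edgeR adjusted p = 0.000591 and 0.000863). With the correction Pfdn6 had -0.16 (edgeR adjusted p = 0.0316) and Pfdn5 was no longer called (-0.094, edgeR adjusted p = 0.112).

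**Figure D4:**
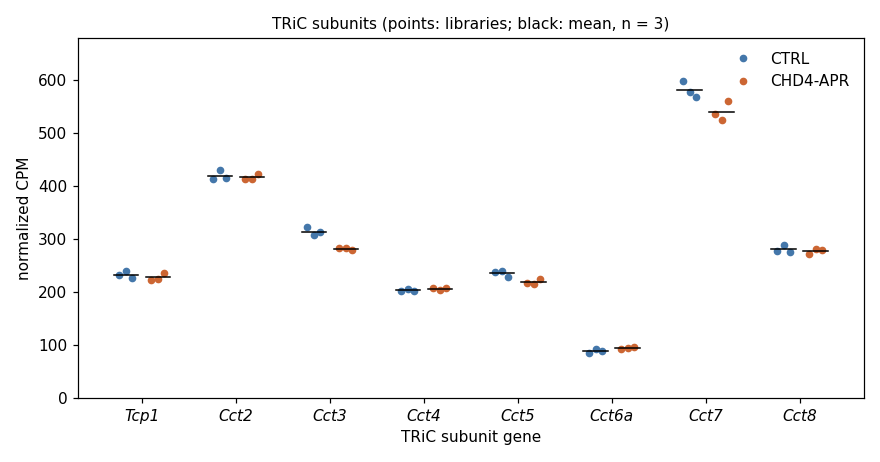
Levels of the 8 TRiC subunit genes in TMM-normalized CPM, with 1 point per library (CTRL in blue, CHD4-APR in orange) and the group mean as a black line (n = 3). Cct3 shows a gap between the groups, at 307 CPM or more with CTRL and 283 CPM or less with CHD4-APR, while the means of Cct2, Cct4 and Cct8 lie close together.

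The remaining 19 DNAJC genes have specialised partners. Of 14 tested, 2 rose, 5 fell and 7 did not pass (50% called, against 38.3% of all tested genes and 43.0% of the protein-coding ones). The median was -0.017 and turned to 0.028 with library size alone. With the correction 1 rose and 6 fell, where 11.7% of all tested genes rose and 15.9% fell, and the median was -0.12. Dnajc17 (ENSMUSG00000034278, chr2:119172500-119208795, minus strand), a nuclear protein with an RNA recognition motif, was at 8.40, 9.76 and 9.98 CPM with CTRL and at 6.62, 6.69 and 6.44 CPM with CHD4-APR. It fell without overlap, with a log2 fold change of -0.51 (SE 0.094, edgeR adjusted p = 0.000487), the lowest value of the members, and -0.34 with the correction (edgeR adjusted p = 0.0142), where the values of Hspbap1, Dnajc15, Dnajc19, Dnajc28 and Dnaja1 were lower. Its exons overlap those of Zfyve19 by up to 108 bases, and 17 of the 64 tested members have exons that overlap another tested gene. Dnajc13 (RME-8), which acts on endosomes, rose from 108, 114 and 112 CPM to 136, 130.4 and 126 CPM with a log2 fold change of 0.23 (SE 0.045, edgeR adjusted p = 0.000745), and turned to -0.047 with the correction.

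Dnajc24, needed to make diphthamide on elongation factor 2, was at 7.58, 8.28 and 7.005 CPM with CTRL and at 8.97, 9.69 and 9.32 CPM with CHD4-APR. It rose with a log2 fold change of 0.29 (SE 0.091, edgeR adjusted p = 0.0198), a call that was lost without CTRL replicate 3 (edgeR adjusted p = 0.0966) or CHD4-APR replicate 2 (0.0741), and had 0.32 with the correction. Dnajc4 fell with a log2 fold change of -0.29 (SE 0.089, edgeR adjusted p = 0.0176), lost without CTRL replicate 1, CHD4-APR replicate 2 or CHD4-APR replicate 3 (edgeR adjusted p between 0.0513 and 0.0668) or with the correction (-0.10, edgeR adjusted p = 0.392). Dnajc9, a histone chaperone, fell with a log2 fold change of -0.15 (SE 0.055, edgeR adjusted p = 0.0421), and the call was lost on leaving out CTRL replicate 1 or 2 or any CHD4-APR library (edgeR adjusted p between 0.0671 and 0.17), and with DESeq2 (adjusted p = 0.053). Dnajc7 and Dnajc8, a co-chaperone shared by HSP70 and HSP90 and a splicing-associated protein, fell by 0.15 and 0.13 on the log2 scale (edgeR adjusted p = 0.00851 and 0.0267). Dnajc7 lost its call without CHD4-APR replicate 2 (edgeR adjusted p = 0.064), and Dnajc8 without CTRL replicate 1 or any CHD4-APR library (edgeR adjusted p between 0.0524 and 0.148). With the correction Dnajc7 had -0.16 and Dnajc8 -0.20, both called. Dnajc2, Dnajc5, Dnajc12, Dnajc16, Dnajc21, Dnajc25 and Dnajc28 did not pass, with log2 fold changes from -0.33 to 0.12, and the 5 untested genes had at most 3 counts in a library. With the correction Dnajc2 and Dnajc21 were called lower, at -0.22 and -0.21 (edgeR adjusted p = 0.00465 and 0.0435).

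Of 21 tested co-chaperones of HSP70 and HSP90 outside these families, 3 rose, 11 fell and 7 did not pass (66.7% called, against 38.3% of all tested genes and 43.0% of the protein-coding ones), with a median of -0.14, and with the correction 2 rose and 5 fell (27.6% of all tested genes called), with a median of -0.050. Sgta, which sorts tail-anchored proteins, was at 146, 126 and 126 CPM with CTRL and at 113, 109 and 113 CPM with CHD4-APR, with a log2 fold change of -0.24 (SE 0.055, edgeR adjusted p = 0.00226). It was not called with the correction (-0.097, edgeR adjusted p = 0.101). In the other direction, Chordc1, a partner of HSP90, rose from 57.3, 63.1 and 61.2 CPM to 75.8, 77.5 and 77.7 CPM with a log2 fold change of 0.35 (SE 0.049, edgeR adjusted p = 5.43e-05), but turned to -0.055 with the correction. Bag4, an exchange factor of HSP70, rose with a log2 fold change of 0.43 (SE 0.080, edgeR adjusted p = 0.000554) and had 0.20 with the correction (edgeR adjusted p = 0.072). Of 5 tested genes among other heat shock factors and targets, 1 fell, the polyubiquitin gene Ubb, with a log2 fold change of -0.18 (SE 0.047, edgeR adjusted p = 0.00643), and the median was -0.083. Ubb had -0.026 with the correction (edgeR adjusted p = 0.651).

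Members called higher both with and without the length and GC correction were Dnajb9, Dnajc3, Hsph1, Hsp90aa1 and Dnajc24. Of the 14 members that fell, 12 were also called lower with the correction, Dnajb2 and Dnajc4 being the exceptions. Over the 64 tested members the correlation of the log2 fold change with GC content, given as a description of points that share libraries, went from a Spearman's rho of -0.43 to 0.055 with the correction, and that with exonic length from 0.27 to -0.14.

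**Figure D5:**
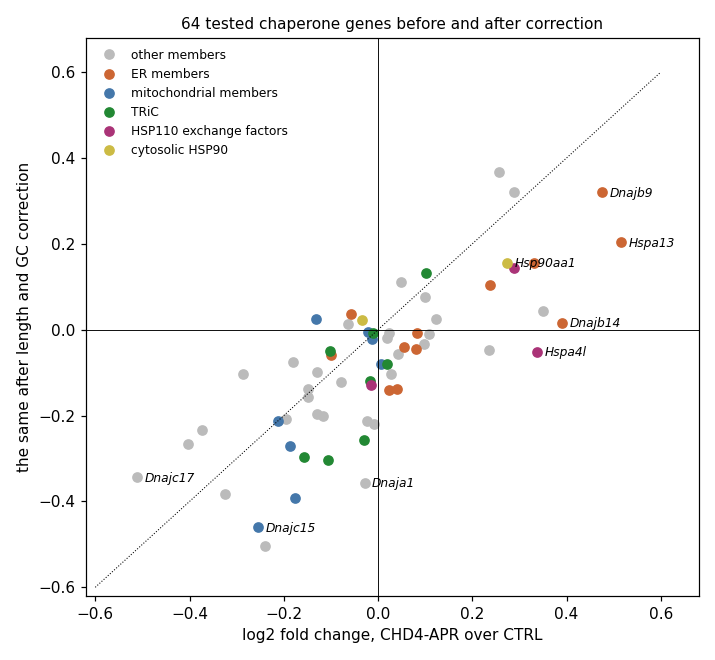
Log2 fold change of each of the 64 tested chaperone genes before (horizontal axis) and after (vertical axis) offsets for exonic length and GC content, with role groups in colour and the line of equal values dotted. Dnajb9 stays high at 0.32, Hspa4l and Dnajb14 drop to -0.051 and 0.017, and Dnaja1 goes from -0.029 to -0.36.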

How the data were processed

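The samples were 6 poly(A) RNA-Seq libraries, 3 CTRL and 3 CHD4-APR, grouped by the titles in the labels. The authors checked reads with FASTQC, trimmed adaptors with Cutadapt, aligned with STAR 2.7.10a to GRCm38 and counted with featureCounts, and the deposited values are raw read counts per gene. The kit (TruSeq v2) does not mark strand, and the counting mode for multimapping and overlapping reads is not given in the sources used here. Another 2 columns that match none of the 6 samples were not used.

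Symbols, exonic length and GC content came from GENCODE M21 (48349 of 48709 identifiers matched). After filterByExpr and TMM scaling in edgeR 4.0.16 (R 4.3.3), groups were compared by the quasi-likelihood test without a block, with Benjamini-Hochberg adjustment over 12722 genes and a threshold of 0.05. The common biological coefficient of variation was 0.0518. The length and GC correction used smooth offsets per library (mgcv 1.9.3). DESeq2 1.42.0, limma 3.58.1, other scalings, filters, the block and leaving out each library were alternatives. The test was checked on simulated data. CPM and RPKM are TMM-normalized. Promoters were RefSeq windows on GRCm38.p6.

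Members and gene lists were chosen with earlier results of these data known. The genes named are a fixed set of chaperones plus, per role group, up to 3 called members in each direction, and per other list up to 2, and further genes named were chosen after their values were seen. A gene that the rule names among the co-chaperones is not reported here. Symbols of 15 matching genes that are not protein-coding were left out, 14 of them processed pseudogenes. Intervals and limits cover counting error only.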

Additional observations from a re-analysis of the deposited data

How the results depend on the processing

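The number of members called was 17 to 29 over all alternatives. Members that fell numbered 8 with library size alone, 8 at an adjusted p under 0.01 and 7 to 13 on leaving out single libraries, and members that rose numbered 6 with the length and GC correction. Members at 1.5-fold numbered 0 to 1 on leaving out single libraries. With library size alone the median was 0.33 for HSP110 exchange factors, 0.16 for cytosolic HSP90, 0.041 for cytosolic and nuclear DNAJ, 0.13 for ER members, -0.11 for mitochondrial members, 0.022 for TRiC and 0.032 for all chaperone members, and the single genes that changed sign were 0.030 for Hspa4, 0.011 for Hsp90ab1, 0.017 for Dnaja1, 0.033 for Hspd1, 0.016 for Tcp1, 0.035 for Cct2 and 0.028 for Cct8. With upper quartile scaling the median was -0.030 for all chaperone members, and -0.011 for Hspa9 changed sign. With the length and GC correction the median was -0.078 for other cytosolic HSP70, -0.051 for HSP110 exchange factors, 0.090 for cytosolic HSP90, 0.0048 for ER members, -0.10 for TRiC, -0.12 for other DNAJC and -0.058 for all chaperone members, and these single genes changed sign: 0.023 for Hsp90ab1, 0.013 for Dnajb1, -0.0070 for Hspa5, -0.14 for Hsp90b1, -0.080 for Hspa9, -0.080 for Cct4, -0.051 for Hspa4l, -0.047 for Dnajc13, -0.055 for Chordc1 and -0.16 for Yme1l1. Leaving out single libraries gave medians of 0.26 to 0.31 for HSP110 exchange factors, -0.050 to 0.020 for cytosolic and nuclear DNAJ, 0.069 to 0.11 for ER members, -0.16 to -0.11 for mitochondrial members and -0.037 to -7.0e-05 for all chaperone members, and single values of -0.025 to 0.0063 for Hspa4, -0.072 to 0.0090 for Dnaja1, -0.10 to 0.0021 for Dnajb1, -0.0019 to 0.064 for Hsp90b1, -0.036 to 0.040 for Hspa9, -0.039 to 0.016 for Hspd1, -0.022 to 0.0072 for Cct2 and -0.033 to 0.0028 for Cct8. Of 943 alternatives for 59 single genes, 822 kept direction and call, 62 lost the call, 21 gained it and 38 changed sign. The causes were not tested. Genes under about 1 CPM, Hspa1a and Hspa1b among them, rested on few counts, and the part of sequencing depth in this was not tested.

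With the replicate number as a block 25 members were called, 11 higher and 14 lower, as without it. The labels do not say what a shared number means, and the deviations of same-numbered libraries from their group means had correlations over 12722 genes of 0.070, 0.055 and -0.035, none above the minimum of 0.1 set for pairing, so the numbers were not taken as pairs. As a hint from the data the other way, 4 of the 6 libraries correlated best with the one of their own number. With the block and the length and GC correction together 29 were called, 8 higher and 21 lower. The median was then -0.078 for other cytosolic HSP70, -0.052 for HSP110 exchange factors, 0.090 for cytosolic HSP90, 0.0039 for ER members, -0.10 for TRiC, -0.12 for other DNAJC and -0.058 for all chaperone members, and these single genes changed sign: 0.023 for Hsp90ab1, 0.013 for Dnajb1, -0.0070 for Hspa5, -0.14 for Hsp90b1, -0.080 for Hspa9, -0.080 for Cct4, -0.052 for Hspa4l, -0.047 for Dnajc13, -0.055 for Chordc1 and -0.16 for Yme1l1.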

Other observations

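Of the 14 processed pseudogenes whose symbols match these families, which were outside the choice of members, 12 were in the count table, 9 of them at 0 in every library, and 2 had more than 1 count in a library, Dnajc19-ps and Hspd1-ps3. Dnajc19-ps was counted 66, 61 and 55 times in the CTRL libraries and 20, 38 and 40 times in the CHD4-APR libraries, lower in all of the latter. Hspd1-ps3 was counted 27, 45 and 48 times with CTRL and 42, 40 and 44 times with CHD4-APR. Both resemble the coding sequence of their parent genes, and the counting of shared reads is not given in the sources used here, so their values and those of Dnajc19 and Hspd1 are uncertain to that extent.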
